A study of Mus musculus with 12 samples.

Results

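The genes described here are the collagen chains and laminin chains of the mouse testis, taken as every gene row whose symbol has the form Col, a number, a and a number, or Lam, a, b or c, and a digit. This gave 55 genes, 44 collagens and 11 laminins, of 20620 genes in the count table. RNA and ribosome footprints were sequenced from testes of C57BL/6 mice at postnatal day 16, when germ cells have entered the meiotic prophase and somatic cells still make up much of the organ. The controls were Mael+/- (heterozygous) and the mutants Mael-/-, which lack Maelstrom, a protein needed for the piRNA control of transposons in germ cells. All testes were dissected into cycloheximide, which holds ribosomes on the mRNA, and each extract gave a total RNA library and a library of nuclease-protected footprints. Either genotype was sampled as 3 extracts and so gave 3 libraries of each assay, 12 in all. The extracts are described as biological replicates, and whether an extract came from 1 mouse or from several is not given in the sources used here. The comparisons ask whether the matrix genes of the testis differ between the genotypes in RNA, in footprints or in the ratio between them. Whole testis was used, so fewer cells of a type and less RNA per cell cannot be told apart.

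Collagens and laminins are secreted proteins of the extracellular matrix. Fibrillar collagens build the fibers of connective tissue, whereas type IV collagens and laminins form networks that make up basement membranes. In the testis a basement membrane surrounds each seminiferous tubule, and it is laid down jointly by Sertoli cells inside the tubule and by the peritubular myoid cells around it. A laminin is assembled from an alpha, a beta and a gamma chain, and a collagen from chains that wind into a triple helix, in which glycine recurs at a spacing of 3 residues.

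That spacing is visible in the coding sequence, and short coding stretches are shown here because they carry the feature that separates the collagen family from the laminin family. Each is 54 bases in reading frame, read from the GRCm38 genome with RefSeq gene models, and capitals mark the codons of glycine (GGN). For the fibrillar genes the stretch is the whole exon of 54 bases nearest the middle of the coding sequence among those that hold the repeat. For the other genes it lies in the exon nearest the middle.
Col1a1, chr11:94946574-94946627, plus strand: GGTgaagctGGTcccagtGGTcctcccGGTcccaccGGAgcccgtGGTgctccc
Col1a2, chr6:4530172-4530225, plus strand: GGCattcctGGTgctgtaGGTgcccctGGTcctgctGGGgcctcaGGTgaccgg
Col3a1, chr1:45337958-45338011, plus strand: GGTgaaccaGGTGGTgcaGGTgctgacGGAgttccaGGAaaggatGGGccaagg
Col4a1, chr8:11220321-11220374, minus strand: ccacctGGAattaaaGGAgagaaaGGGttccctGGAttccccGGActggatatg
Col4a2, chr8:11431242-11431295, plus strand: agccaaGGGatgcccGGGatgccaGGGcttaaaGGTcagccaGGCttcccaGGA
Col18a1, chr10:77074428-77074481, minus strand: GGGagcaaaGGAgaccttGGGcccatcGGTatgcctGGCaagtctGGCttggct
Lamb2, chr9:108486117-108486170, plus strand: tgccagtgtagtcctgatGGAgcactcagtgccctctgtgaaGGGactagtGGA
Lamc3, chr2:31918430-31918483, plus strand: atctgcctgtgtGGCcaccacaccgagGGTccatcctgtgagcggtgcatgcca

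The Col1a1, Col1a2 and Col3a1 exons begin with a glycine codon and repeat it at a spacing of 3 codons to their end. The stretch of Col4a1 keeps the spacing up to its last codon, where it breaks off, whereas those of Lamb2 and Lamc3 hold 3 and 2 glycine codons and do not keep the spacing through the stretch. Over whole coding sequences, a glycine repeat was counted where at least 6 glycine codons followed each other at this spacing. Such repeats covered 73.3% of the codons of Col1a1, 77.2% of Col1a2 and 79.2% of Col4a1. They covered 32.4% of Col18a1 and 10.1% of Col6a3, and none of the codons of any of the 11 laminins. The longest repeat ran over 338 triplets in Col1a1 and 344 in Col3a1, but over 40 in Col4a1, whose coding sequence held 22 separate repeats. Col1a1 had 21 coding exons of exactly 54 bases and Col1a2 had 24, whereas the laminins had none.

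Of the 55 genes, 23 had another member within 500000 bases on the same chromosome. In 3 pairs of type IV collagens the genes lay head to head on opposite strands. The annotated starts of Col4a1 and Col4a2 overlapped by 85 bases on chromosome 8, those of Col4a4 and Col4a3 by 114 bases on chromosome 1, and those of Col4a6 and Col4a5 lay 1274 bases apart on chromosome X. Col6a4, Col6a5 and Col6a6 were neighbors on chromosome 9, and Col6a1 and Col6a2 on chromosome 10. An annotated gene on the opposite strand overlapped 22 of the members, and for these the counts may hold reads of both strands, since the strand setting of the counting is not given in the sources used here.

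Mael itself was checked first. It had 3800 to 5045 counts in the heterozygous RNA libraries and 0 to 2 in the Mael-/- RNA libraries, and 660 to 1294 against 0 to 7 in the footprint libraries. The RNA libraries held 13697267 to 27462358 gene counts, and the footprint libraries 7609932 to 13233565. Heterozygous extract 1 stood apart from the others: the summed level of 15 markers of pachytene spermatocytes, the later cells of the meiotic prophase, was 965 CPM (the gene's share of a library's gene counts, scaled to a common size with TMM factors) in its RNA library and ran from 326 to 405 CPM in the other 5. In footprints it was 1048 CPM against 288 to 394 CPM. For some matrix genes and classes, counts and fold changes are also given without this extract. A value with no such second figure may move with the extract too. Defining markers of the somatic cells were present in all 12 libraries, with Acta2 of peritubular myoid cells at 498 to 978 CPM and Wt1 of Sertoli cells at 226 to 399 CPM.

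Collagens and laminins together took 0.638% ± 0.073 of gene counts in heterozygous RNA and 0.701% ± 0.034 in Mael-/- RNA (SD, n = 3). In footprints they took 0.969% ± 0.091 and 1.05% ± 0.017. The RNA shares were 0.564, 0.641 and 0.71% in heterozygous replicates 1 to 3 and 0.682, 0.68 and 0.74% in Mael-/- replicates. Heterozygous replicate 1 was the lowest library and the genotypes overlapped. The footprint shares were 0.908, 0.924 and 1.07% against 1.05, 1.04 and 1.07%, with overlap again.

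**Figure D1:**
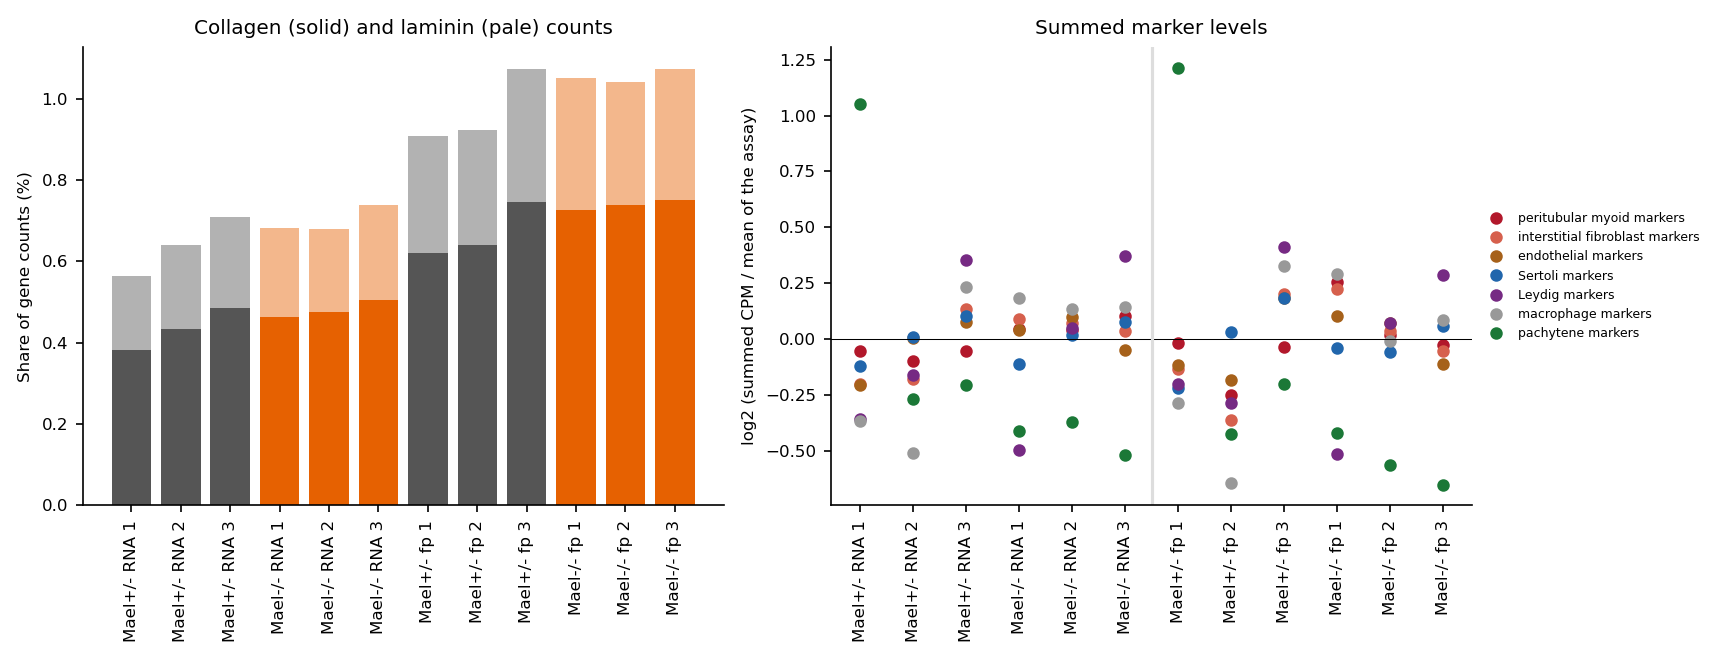
Left, the share of gene counts (%) taken by collagens (solid) and laminins (pale) in each library, with Mael+/- in gray and Mael-/- in orange ("fp" is footprints). Right, summed CPM of 7 lists of cell type markers in each library as log2 of the ratio to the mean of the 6 libraries of its assay. Heterozygous replicate 1 has the highest pachytene point and the lowest stacked bar of each assay.

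Levels between genes were compared as CPM per kilobase, per exonic kilobase for RNA and per coding kilobase for footprints, over the 6 libraries of an assay. On this scale the RNA levels of the members ran from near 0 to 144, with 18 members at 10 or more, 20 between 1 and 10, and 17 below 1. The median member had an RNA level of 3.46 and a footprint level of 5.4, against 6.13 and 12 for the 17896 genes with a count and a length. The family therefore held genes at both ends of the range of the testis. The 10 members with the most counts held 70.5% of all member counts in RNA and 70% in footprints.

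**Figure D2:**
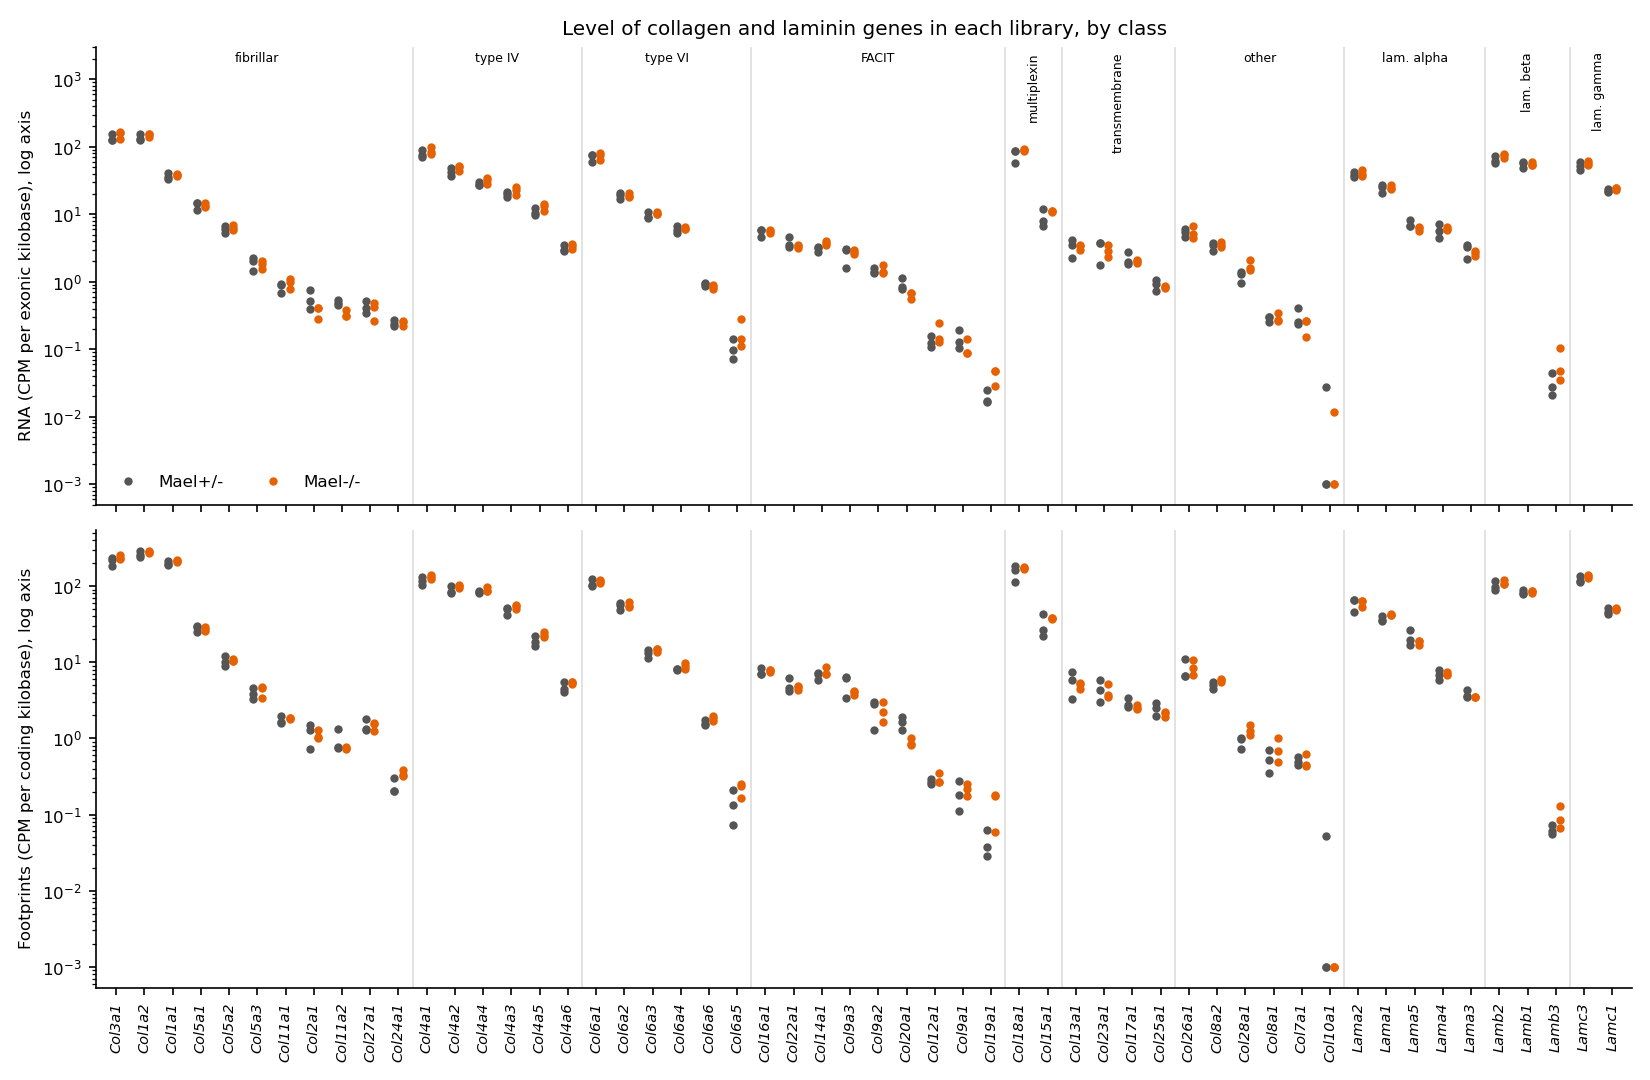
Level of 54 members in each library, by class, in RNA (CPM per exonic kilobase, top) and footprints (CPM per coding kilobase, bottom) on log axes. Each point is a library, with Mael+/- in gray and Mael-/- in orange. Values of 0 are drawn at 0.001. Within a gene the points of both genotypes lie close together compared with the distance between genes, which span from 144 for Col3a1 down to 0.0066 for Col10a1 in RNA.

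Among the fibrillar collagens, Col3a1 and Col1a2 had the highest RNA levels of all members. Col3a1 encodes type III collagen, and Col1a1 and Col1a2 encode the chains of type I collagen, the main fiber of connective tissue. Col3a1 RNA was at 125, 127 and 154 CPM per kilobase in heterozygous replicates 1 to 3 and at 132, 161 and 164 in Mael-/- replicates. Col1a2 RNA was at 124, 132 and 153 in heterozygous and 138, 153 and 153 in Mael-/- replicates. Over the 6 libraries Col3a1 was at 144 ± 17.7 and Col1a2 at 142 ± 12.5 (SD), so the pair did not differ beyond their spread, and both were at the 98th percentile of genes. Col1a1 RNA was lower, at 35.9, 33.3 and 41 in heterozygous and 39.1, 37.5 and 37.2 in Mael-/- replicates. The minor fibrillar chains Col5a1 and Col5a2, which join type I fibers, were at 13.6 ± 1.21 and 6.15 ± 0.604. The remaining fibrillar genes, among them Col2a1 and Col11a2 of cartilage, had RNA levels between 0.244 and 1.86.

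The footprint levels of the type I chains stood in another proportion than their RNA. Col1a1 footprints were at 194, 190 and 214 CPM per coding kilobase in heterozygous and 210, 221 and 213 in Mael-/- replicates. Col1a2 footprints were at 257, 238 and 288 in heterozygous and 275, 283 and 291 in Mael-/- replicates. The ratio of Col1a1 to Col1a2 was 0.288, 0.252 and 0.267 in heterozygous RNA and 0.283, 0.246 and 0.243 in Mael-/- RNA. In footprints it was 0.755, 0.798 and 0.743 in heterozygous and 0.765, 0.781 and 0.732 in Mael-/- extracts. All 6 footprint ratios lay above all 6 RNA ratios, with means of 0.762 ± 0.024 and 0.263 ± 0.019, and in both assays the genotypes overlapped. Type I collagen is assembled from more Col1a1 than Col1a2 chains. These ratios are given as a description, with no test.

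All 6 type IV collagens were detected, and in order of mean RNA level the head-to-head partners stood side by side, though at unequal levels. Col4a1 and Col4a2, the chains found in nearly all basement membranes, were the highest. Col4a1 RNA was at 70.7, 75.2 and 88.1 CPM per kilobase in heterozygous and 84.4, 79.1 and 98.7 in Mael-/- replicates. Col4a2 RNA was at 37.4, 41.6 and 47.7 against 49.7, 43.4 and 51.6. The chains of specialized basement membranes, in which they form a network of their own, came next. Col4a4 RNA was at 27.5, 27.5 and 29.7 in heterozygous and 34.1, 27.8 and 32.6 in Mael-/- replicates, and Col4a3 was at 21.1 ± 2.57 over the 6 libraries. Col4a5 was at 11.9 ± 1.69 and Col4a6 at 3.26 ± 0.335. The ratio of Col4a1 to Col4a2 in RNA varied only from 1.70 to 1.91 over the 6 libraries, that of Col4a3 to Col4a4 from 0.658 to 0.734 and that of Col4a5 to Col4a6 from 3.49 to 3.9. In every library the head-to-head partners thus kept their order. A narrow range was not particular to them: the RNA ratio of Col3a1 to Col1a2, on different chromosomes, ran from 0.958 to 1.07.

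The type VI collagens form beaded filaments at the border of basement membranes. Col6a1 RNA was at 59.4, 75.2 and 76 CPM per kilobase in heterozygous and 63.2, 81.2 and 75.9 in Mael-/- replicates. Col6a2 RNA was at 16.6, 19.6 and 20.7 against 17.9, 20.6 and 18.7, and Col6a3 RNA at 8.79, 9.12 and 10.8 against 10.2, 10.1 and 11. These 3 chains are assembled together, and the RNA ratio of Col6a1 to Col6a2 was 3.77 ± 0.212 whereas the footprint ratio was 2.04 ± 0.109. The ranges were 3.54 to 4.07 and 1.84 to 2.13 and did not overlap. Col6a4 RNA was at 6.08 ± 0.514, Col6a6 at 0.875 ± 0.06 and Col6a5 at 0.141 ± 0.0735.

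The multiplexins Col18a1 and Col15a1 are basement membrane collagens that carry sugar chains and release fragments named endostatin and restin. Col18a1 RNA was at 57.2, 86.7 and 87.7 CPM per kilobase in heterozygous and 88.1, 86.8 and 92.5 in Mael-/- replicates, so that heterozygous replicate 1 lay below the other 5 libraries. Col15a1 RNA was at 8.08, 6.75 and 11.9 against 11, 10.9 and 11.2, and here heterozygous replicates 1 and 2 were both low. The RNA ratio of Col18a1 to Col15a1 was 12.9 in heterozygous replicate 2 and 7.08 to 8.24 in the other 5 extracts. In footprints it was 7.23 in that extract and 4.25 to 4.62 in the others.

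The FACIT collagens, which bind to the surface of fibers, were low. Col16a1 had the highest RNA of the class, at 4.67, 5.94 and 5.82 CPM per kilobase in heterozygous and 5.25, 5.63 and 5.93 in Mael-/- replicates. Col22a1 RNA was at 3.26, 4.53 and 3.48 against 3.33, 3.17 and 3.46. Col14a1 was at 3.4 ± 0.44 over the 6 libraries, and the other members of the class, Col9a1, Col9a2, Col9a3, Col12a1, Col19a1 and Col20a1, lay between 0.0306 and 2.64.

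The transmembrane collagens stay anchored in the cell membrane. Col13a1 RNA was at 2.25, 4.17 and 3.49 CPM per kilobase in heterozygous and 3.48, 2.98 and 3.44 in Mael-/- replicates. Col23a1 RNA was at 1.80, 3.79 and 3.79 against 2.3, 3.47 and 2.86. Col17a1, a protein of the hemidesmosomes of epithelia, was at 1.83, 2.76 and 1.93 against 1.91, 2.04 and 2.13. For Col13a1 and Col23a1 heterozygous replicate 1 was the lowest library, and for all 3 genes the genotypes overlapped. Of the remaining collagens, Col26a1 was at 4.67, 5.52 and 6.04 against 4.52, 5.16 and 6.66, and Col8a2 at 2.84, 3.77 and 3.55 against 3.29, 3.47 and 3.87. Col10a1, the collagen of hypertrophic cartilage, had at most 2 counts in any library. Col10a1 was the member that went without a count in some libraries, while the other 54 had at least 1 count in each of the 12.

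The laminins are described by chain class. Of the alpha chains, Lama2 RNA was at 37.8, 35.8 and 42.9 CPM per kilobase in heterozygous and 39.9, 37.3 and 44.9 in Mael-/- replicates. Lama1 RNA was at 20.8, 25.1 and 26.9 against 24.3, 23.6 and 27.2, and Lama5 RNA at 6.71, 8.32 and 6.62 against 6.56, 5.72 and 6.31. Lama4, the alpha chain of blood vessels, was at 5.95 ± 0.882 and did not differ from Lama5 (6.71 ± 0.87) beyond their spread, and Lama3 was at 2.82 ± 0.511.

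Of the beta chains, Lamb2 RNA was at 58.4, 61.3 and 73.5 CPM per kilobase in heterozygous and 74.3, 67.9 and 77.2 in Mael-/- replicates. Lamb1 RNA was at 48.7, 60.3 and 57.4 against 53.8, 53.6 and 59.6. Lamb3, a beta chain of the laminin of the epidermis, was close to absent, with 2 to 12 counts per RNA library and levels from 0.0209 to 0.105. Of the gamma chains, Lamc3 was the highest, at 44.7, 52.2 and 58.7 in heterozygous and 57.6, 53.6 and 62.4 in Mael-/- replicates. Lamc1, the gamma chain of most laminins, was at 21.9, 21.7 and 23.6 against 24.6, 22.8 and 24.8. The RNA ratio of Lamc1 to Lamc3 ran from 0.398 to 0.489 and the footprint ratio from 0.371 to 0.394, so Lamc1 was below Lamc3 in all 12 libraries. Lamc3 was the member whose RNA level depended most on the gene model among those at 10 or more: with GENCODE transcripts in place of RefSeq, an alternative chosen after seeing the data, it was at 79.2 rather than 54.9 ± 6.16.

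The chains of a laminin trimer are used in equal numbers, and the summed levels of the classes can be set beside this. Summed RNA levels were 79.9 ± 6.24 CPM per kilobase for the alpha chains, 124 ± 10.3 for the beta chains and 78.7 ± 7.28 for the gamma chains over the 6 libraries. Summed footprint levels were 129 ± 7.23, 190 ± 16.1 and 176 ± 13.2. In RNA the beta sum was above the alpha and gamma sums in all 6 libraries, and the alpha and gamma sums overlapped. With GENCODE transcripts, chosen after seeing the data, the gamma sum was 103 ± 10 against 79.4 ± 6.21 for the alpha chains and lay above it in all 6 libraries, so this overlap depended on the gene model. In footprints both the beta and gamma sums were above the alpha sum in all 6 libraries.

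Between the genotypes, no collagen or laminin passed the test in RNA. Changes are given as log2 fold changes of Mael-/- against Mael+/- with their standard errors, from edgeR's quasi-likelihood test with Benjamini-Hochberg adjustment over all genes, and a call stands for an adjusted p below 0.05. Of 14685 genes tested, 0.116% were called, and of the 52 members that passed the filter on low counts none were, with 0.859 as the smallest adjusted p of a member. Col10a1, Col19a1 and Lamb3 did not pass the filter. An unadjusted p under 0.05 was reached by 4 members, against 5.41% of all genes, and neither DESeq2 nor limma voom called a member. For 45 of the 52 members the 95% confidence interval lay within a change of 2-fold either way, that is, within 1 on the log2 scale.

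The fold changes of the members were small and more often positive. They were above 0 for 35 of 52 members, against 47.7% of all genes tested, and their median was 0.06, against -0.01 for all genes. The 42 collagens and the 10 laminins tested had the same median to within 0.01, at 0.06 each. This balance rested on heterozygous replicate 1: without that library 25 members were above 0 and 28 below, and the median was -0.02. With limma voom, which weights libraries by their quality, 26 of 52 were above 0. The library was the lowest of the 6 for 30 of 51 members tested in both assays. Its members lay at a median of -0.19 (log2) from the mean of the RNA libraries, whereas those of the other 5 RNA libraries lay between -0.03 and 0.09.

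Markers of somatic cells and germ cells moved across the same libraries, and their part in these values was not tested. Pachytene markers were below 0 in all 13 of 15 that were tested. Their summed RNA levels were 388 to 965 CPM in heterozygous and 326 to 362 CPM in Mael-/- libraries, which did not overlap. Pgk2 and Adam3 of this list were at 0 in some libraries. All 9 peritubular myoid markers were above 0, with summed RNA levels of 1235 to 1275 CPM in heterozygous and 1360 to 1419 CPM in Mael-/- libraries, which did not overlap. In footprints these markers were at 1498 to 1760 and 1749 to 2129 CPM. Of 8 interstitial fibroblast markers 7 were above 0, at 688 to 867 against 810 to 839 CPM. Of 8 endothelial markers 7 were above 0, at 101 to 123 against 113 to 125 CPM. Of 10 Sertoli markers 3 were above 0, at 3730 to 4348 against 3747 to 4263 CPM. All 8 macrophage markers were above 0, at 144 to 242 against 226 to 233 CPM, and of 8 Leydig markers 4 were, at 365 to 597 against 331 to 604 CPM. Of 8 spermatogonial markers 3 were above 0, at 978 to 1164 against 967 to 1053 CPM, and of 9 markers of early meiotic prophase 2 were, at 1006 to 2696 against 935 to 1345 CPM. None of these markers was called in RNA or footprints.

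**Figure D3:**
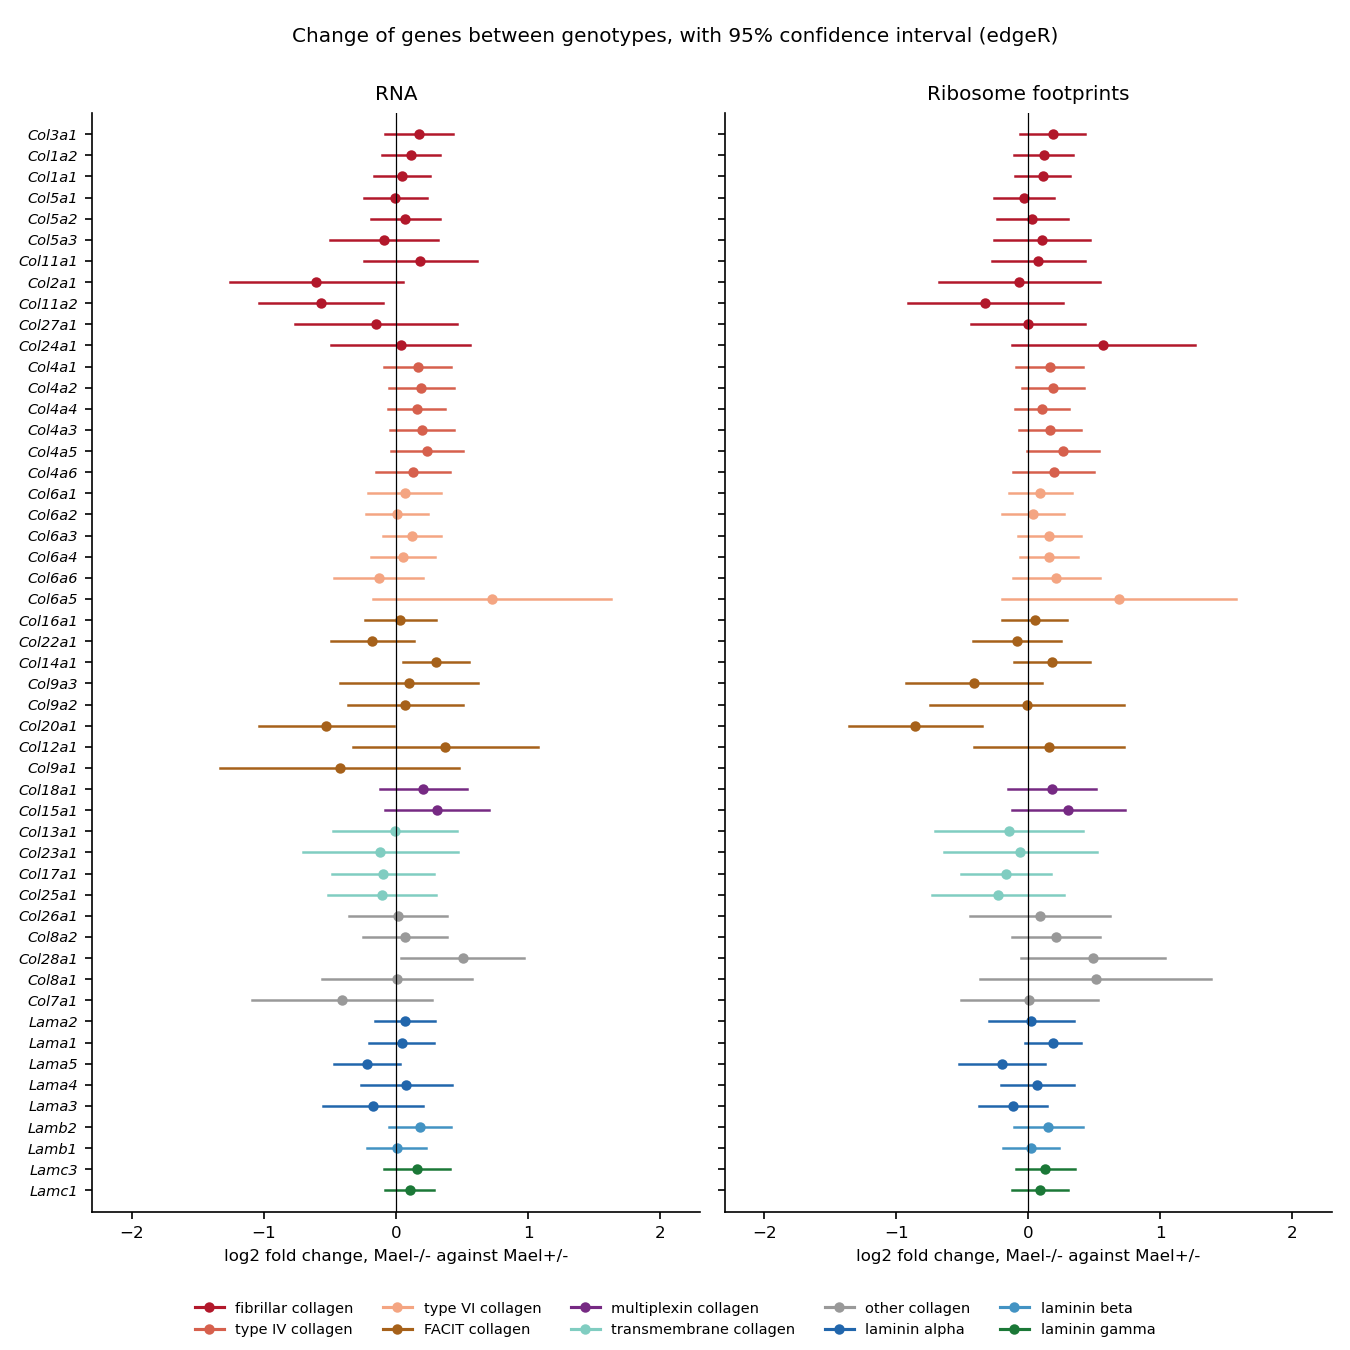
Log2 fold change of tested members between Mael-/- and Mael+/- with its 95% confidence interval (edgeR), in RNA (left) and footprints (right), colored by class and ordered by RNA level within a class. Most intervals include 0, and the wide ones belong to members with few counts, such as Col6a5.

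The 6 type IV collagens lay on the same side of 0 in RNA, with a median of 0.18 and fold changes from 0.13 for Col4a6 to 0.24 for Col4a5. Col4a1 stood at 0.16 ± 0.11 and Col4a2 at 0.19 ± 0.11 (SE), and neither was called. Without heterozygous replicate 1 these values were 0.10 and 0.11. All 6 stayed above 0 whichever RNA library was left out, with medians from 0.13 to 0.25. In every type IV gene the levels of the genotypes overlapped. The multiplexins Col18a1 and Col15a1 stood at 0.21 ± 0.15 and 0.31 ± 0.18, and without that library Col18a1 stood at 0.03. Col15a1 ranged from 0.14 without heterozygous replicate 2 to 0.57 without heterozygous replicate 3. The 4 transmembrane collagens all lay below 0, from -0.12 to -0.01, but without heterozygous replicate 2 all 4 lay above 0. Without heterozygous replicate 1 all 4 stayed below 0, with a median of -0.23 against -0.10. The type VI collagens had a median of 0.06 with 5 of 6 above 0, and the fibrillar collagens one of 0.04 with 6 of 11 above 0. Without heterozygous replicate 1, 2 of 6 type VI collagens were above 0 with a median of -0.04, and 4 of 11 fibrillar collagens with a median of -0.02. Type III collagen, Col3a1, stood at 0.17 ± 0.12, and the type I chains Col1a1 and Col1a2 at 0.05 ± 0.09 and 0.11 ± 0.10. Leaving out 1 RNA library at a time moved Col1a1 between -0.02 and 0.13 and Col1a2 between 0.05 and 0.20. Lamb2 and Lamc3 stood at 0.18 ± 0.10 and 0.16 ± 0.11, and Lama5 at -0.22 ± 0.11. Without heterozygous replicate 1 Lamb2 was at 0.12 and Lamc3 at 0.06, and without heterozygous replicate 2 Lama5 was at -0.11.

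The members with the highest and lowest fold changes in RNA were low genes. Col6a5 RNA was at 0.0981, 0.071 and 0.143 CPM per kilobase in heterozygous and 0.28, 0.112 and 0.141 in Mael-/- replicates, with a fold change of 0.73 ± 0.40. Its high value came from Mael-/- replicate 1, without which the fold change was 0.29, and the genotypes overlapped. Col28a1, which has a collagen stretch between von Willebrand domains, was at 1.28, 0.945 and 1.42 against 2.09, 1.61 and 1.51, with 0.50 ± 0.21. Col12a1 was at 0.122, 0.11 and 0.159 against 0.247, 0.144 and 0.127, with 0.37 ± 0.31, and 0.06 without Mael-/- replicate 1. On the other side, Col2a1 was at 0.753, 0.514 and 0.399 against 0.409, 0.28 and 0.404, with -0.60 ± 0.29, and -0.33 without heterozygous replicate 1. Col11a2 was at 0.486, 0.544 and 0.459 against 0.384, 0.315 and 0.314, with -0.57 ± 0.21. Col20a1 was at 1.14, 0.779 and 0.823 against 0.674, 0.686 and 0.547, with -0.53 ± 0.23, and -0.35 without heterozygous replicate 1. None of these 6 was called.

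Among the members tested in RNA, 2 were higher in all Mael-/- libraries than in all heterozygous libraries, namely Col14a1 and Col28a1, against 4.77% of all genes tested. Lower in all Mael-/- libraries were 3 members, Col11a2, Col20a1 and Lama5, against 5.67% of all genes. Col14a1, a FACIT collagen, was at 3.23, 2.78 and 3.12 CPM per kilobase in heterozygous and 3.8, 3.53 and 3.95 in Mael-/- RNA, and its fold change was 0.30 ± 0.11. Members without overlap were thus about as frequent as genes without overlap in general.

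In footprints, again no member passed the test. Of 13500 genes tested, 0.0593% were called, and of 51 members none were, with 0.747 as the smallest adjusted p of a member in edgeR's quasi-likelihood test. Col9a1 joined the 3 genes that did not pass the filter. An unadjusted p under 0.05 was reached by 1 member, Col20a1, against 4.33% of all genes, and neither DESeq2 nor limma voom called a member. The interval lay within 1 on the log2 scale for 46 of 51 members. The fold changes were above 0 for 36 of 51 members, against 47.5% of all genes, with a median of 0.09 against -0.01. Without heterozygous footprint replicate 1 they were above 0 for 33 of 51, with a median of 0.06.

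By class, all 6 type IV and all 6 type VI collagens had footprint fold changes above 0, with medians of 0.17 and 0.16. The 2 multiplexins and the 5 tested collagens outside the named classes were also above 0, with medians of 0.24 and 0.21. Without heterozygous replicate 1, 3 of those 5 were above 0, and the multiplexin Col18a1 was at 0.01. The type IV collagens stayed above 0 whichever footprint library was left out, with medians from 0.10 to 0.27, whereas Col6a2 of type VI was at -0.04 without heterozygous replicate 1. The fibrillar collagens had a median of 0.07 with 7 of 11 above 0, and of 0.02 without that library. The FACIT collagens had -0.01 with 3 of 7 above 0. The 4 transmembrane collagens lay below 0, from -0.23 to -0.06. Of these 4, 2 lay above 0 without heterozygous replicate 2, but none without heterozygous replicate 1. Of the laminins, 7 of 10 were above 0 with a median of 0.05, from -0.20 for Lama5 to 0.19 for Lama1, and Lama5 was at -0.01 without heterozygous replicate 2.

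Higher footprints in all Mael-/- libraries were seen for 5 members, Col24a1, Col28a1, Col4a4, Col6a4 and Lama1, against 4.19% of all genes tested. The levels of Col4a4 were 81.7, 84.9 and 85.8 CPM per coding kilobase in heterozygous and 86.3, 87.3 and 97.4 in Mael-/- footprints, with a log2 fold change of 0.10 ± 0.09, and 0.04 without Mael-/- replicate 3. Lama1 was at 35.5, 34.7 and 40.3 against 41.3, 41.4 and 43, with 0.19 ± 0.10. Both groups of Lama1 lay close together, the gap between them being smaller than the range within the heterozygous libraries. Col6a4 was at 8, 8.18 and 8.17 against 9.86, 8.24 and 9.03, with 0.16 ± 0.10. Col24a1, a fibrillar collagen of low level, was at 0.204, 0.298 and 0.206 against 0.335, 0.384 and 0.319, with 0.57 ± 0.31.

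Lower footprints in all Mael-/- libraries were seen for 1 member, Col20a1, against 4.87% of all genes. Col20a1 was at 1.93, 1.66 and 1.31 in heterozygous and 1.01, 0.857 and 0.806 in Mael-/- footprints, with a log2 fold change of -0.86 ± 0.23. It was the member whose genotypes were apart on the lower side in both assays, with 39 to 110 counts per RNA library and 27 to 72 per footprint library. Without heterozygous replicate 1, in which it was highest, its fold change was -0.35 in RNA and -0.70 in footprints. Col28a1, at 0.992, 0.716 and 1.03 against 1.24, 1.52 and 1.11 in footprints (0.49 ± 0.25), was apart on the higher side in both assays. As RNA and footprints came from the same extracts, the assays are not independent samples of the animals.

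**Figure D4:**
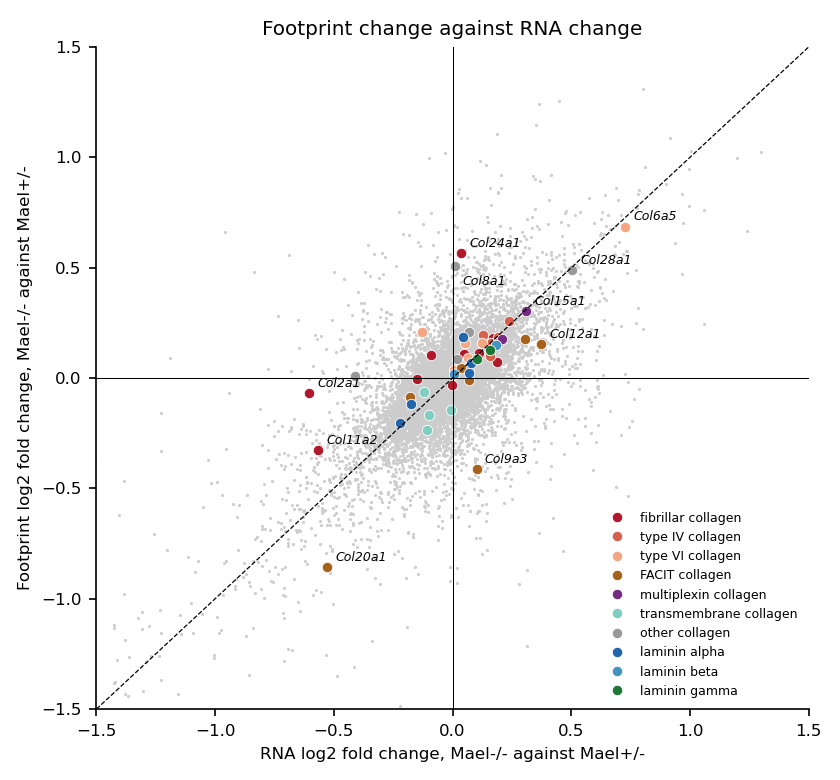
Log2 fold change in footprints against that in RNA (Mael-/- against Mael+/-) for members tested in both assays, colored by class, with tested genes in general in gray. The dashed line marks equal change. Both axes end at 1.5 either way and genes beyond are not drawn. Members lie around the line, and those farthest from 0, such as Col6a5 and Col20a1, have few counts.

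Translation efficiency was taken as the change of footprints beyond that of RNA, tested as the interaction of genotype and assay over the 12 libraries. This main fit did not pair the libraries of an extract, so the spread that they share stayed in its error. Of 13448 genes tested, 0% were called by edgeR, and DESeq2 and limma voom called none either. An unadjusted p under 0.05 was reached by 0.387% of genes and by none of the 51 members, and a fit that paired the libraries of an extract also called none. As the main fit was unpaired, these low shares do not show how alike the genotypes were. The fold changes of the members had a median of 0.01, with 27 above 0 and 24 below. This split was not stable, as 41 of 51 were above 0 with limma voom and 15 without heterozygous RNA replicate 3. In the main fit, without pairing, the interval lay within 1 on the log2 scale for 43 of 51. Members with many counts gave narrow intervals: -0.21 to 0.33 for Col1a1, -0.30 to 0.30 for Col1a2, -0.36 to 0.35 for Col4a1 and -0.27 to 0.23 for Lamc1. The values were from -0.51 for Col9a3 to 0.53 for Col2a1.

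Within each genotype, footprints were compared with RNA gene by gene. In Mael+/- testes 30 of 51 members were called higher in footprints, against 24% of all genes tested, and 3 were called lower, against 34%. In Mael-/- testes 30 members were higher, against 24.4%, and 4 lower, against 34.2%. For all 51 members both directions together gave 33 calls in Mael+/- and 34 in Mael-/- testes, or 41 and 39 with the libraries of an extract paired. The members lower in both genotypes were Col23a1, Col28a1 and Col8a2, and Col25a1 was lower in Mael-/- testes. The median of the members was 0.43 (log2) in Mael+/- and 0.40 in Mael-/- testes, against -0.08 for all genes in each.

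This placement above other genes was not seen once gene length was taken into account. RNA was counted over whole mRNAs and footprints over coding sequence, so a gene with long untranslated parts has a lower ratio of footprints to RNA. When footprints were divided by coding length and RNA by exonic length, the median log2 ratio was 0.77 for the members and 0.87 for all 13393 genes with a length. On that scale 23 of 51 members lay above the median of all genes. The collagens had a median of 0.82 and the laminins of 0.61. Fibrillar collagens had 1.01 with 8 of 11 above the median of all genes, type VI collagens 0.58 with 2 of 6, and laminin alpha chains 0.57 with 1 of 5.

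**Figure D5:**
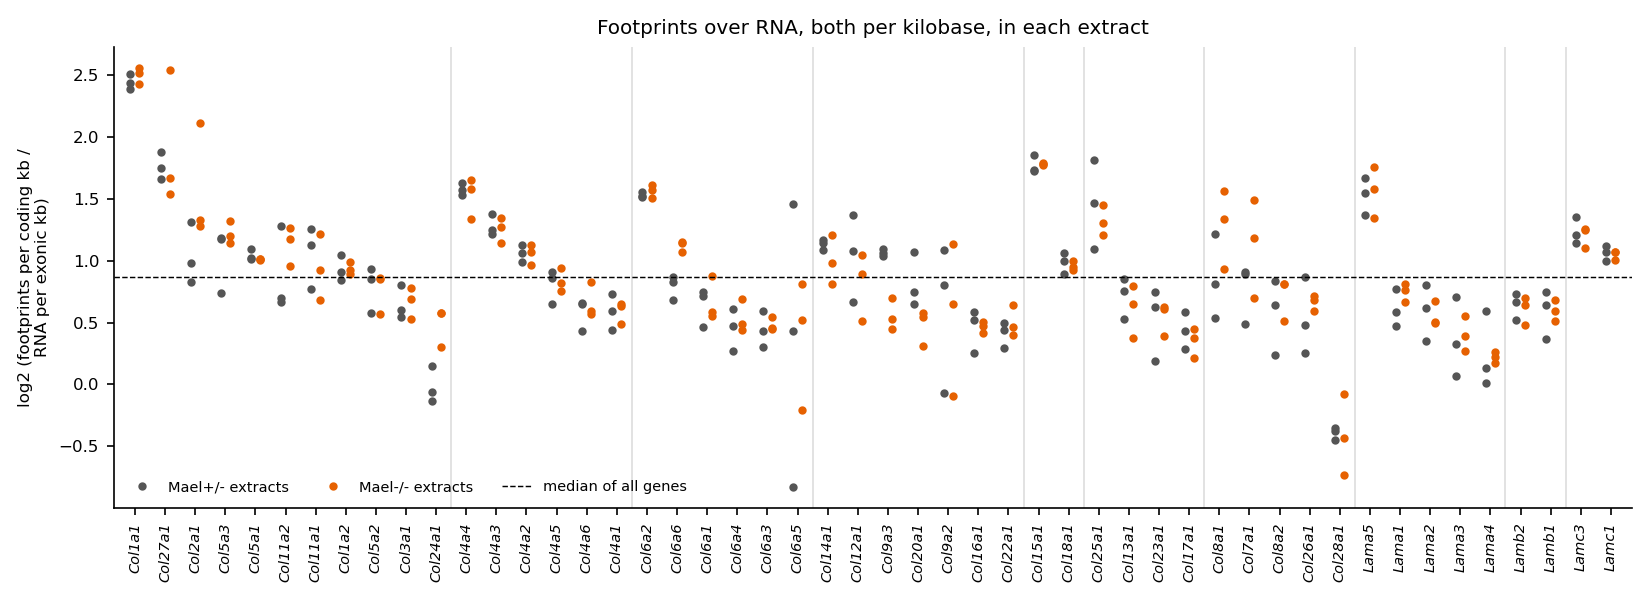
Log2 ratio of footprints per coding kilobase to RNA per exonic kilobase in each extract, for members tested in both assays, by class and in falling order of the mean within a class. Gray points are Mael+/- extracts, orange points Mael-/- extracts, and the dashed line is the median of all genes, 0.87. Col1a1 is the highest member at 2.47 and Col28a1 the lowest at -0.40.

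Col1a1 had the highest ratio of the members, 2.47 ± 0.07 (log2, SD over 6 extracts), at the 95.6th percentile of all genes. Its extracts were at 2.44, 2.51 and 2.38 in heterozygous and 2.43, 2.56 and 2.52 in Mael-/- testes, and the lowest of them was above all extracts of Col1a2. Col1a2 was at 1.05, 0.85 and 0.91 against 0.99, 0.89 and 0.93, and Col3a1 at 0.80, 0.55 and 0.60 against 0.78, 0.69 and 0.53. Without division by length, footprints against RNA gave 2.0 ± 0.09 (SE) for Col1a1 and 0.59 ± 0.10 for Col1a2 in Mael+/- testes, and 2.06 ± 0.09 and 0.59 ± 0.10 in Mael-/- testes. The distance between the type I chains thus remained on both scales.

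The next members in this order were Col27a1 at 1.84 ± 0.36, Col15a1 at 1.78 ± 0.05, Col4a4 at 1.55 ± 0.11, Col6a2 at 1.55 ± 0.04 and Lama5 at 1.54 ± 0.16. This order holds for RefSeq lengths and may differ with GENCODE, for which these ratios were not computed. Exonic length was 7808 bases in RefSeq and 10108 in GENCODE for Col4a4, and 5319 and 6026 for Col15a1, and a longer one raises the ratio. Lama5, the alpha chain with the highest ratio, was at 1.55, 1.67 and 1.37 in heterozygous and 1.35, 1.75 and 1.58 in Mael-/- extracts. The lowest were Col28a1 at -0.40 ± 0.21, Lama4 at 0.23 ± 0.20 and Col24a1 at 0.24 ± 0.31. Over the 41 collagens, the correlation of the ratio was weak with the share of codons in glycine repeats (Pearson r = 0.15, Spearman rho = 0.17), with the number of codons (0.05 and 0.04) and with the RNA level (0.15 and 0.12). These are descriptions across genes, which share libraries and are not independent replicates.

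The genes that make, process and bind the matrix were taken from 5 lists. Of 21 genes for collagen synthesis and secretion, 12 were above 0 and 9 below in RNA, with a median of 0.02 and none called. Serpinh1, the collagen chaperone of the endoplasmic reticulum, was at 186, 215 and 239 CPM in heterozygous and 223, 282 and 252 in Mael-/- RNA, with 0.24 ± 0.12. Leprel1, a prolyl hydroxylase, had -0.20 ± 0.25. Of 13 genes for processing and crosslinking 8 were above 0 and none called, with -0.42 ± 0.25 for Pcolce2 and 0.35 ± 0.27 for the lysyl oxidase Loxl4.

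Of 14 other basement membrane proteins, 9 were above 0 in RNA and none were called, with a median of 0.03. Npnt, a ligand of integrins, was at 15.5, 12.1 and 14.5 CPM in heterozygous and 20.6, 19.2 and 15 in Mael-/- RNA, with 0.37 ± 0.15. Ntn4, a netrin that binds laminins, was at 62.6, 56 and 68.1 against 91.3, 66.3 and 70.7, with 0.29 ± 0.13. For both genes the lowest Mael-/- library lay below the highest heterozygous library. Of 15 receptors of collagens and laminins, 9 were above 0 and none called, with -0.37 ± 0.23 for Itgb4 and 0.35 ± 0.41 for Itga2. Of 14 matrix proteases and inhibitors, 9 could be tested, and in RNA 7 of them were above 0 and none called. Ctsk had 0.20 ± 0.19 and Mmp9 0.20 ± 0.26. The balance was the other way in footprints, with 3 of 9 above 0 and a median of -0.04 against 0.12 in RNA. There Ctsk had -0.22 ± 0.22 and Mmp9 -0.14 ± 0.29. In footprints none of the genes of these 5 lists was called either.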

How the data were processed

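Testicular extracts of P16 mice were split into aliquots for stranded, rRNA-depleted total RNA libraries and for micrococcal nuclease footprint libraries. The authors deposited raw counts per gene and repeat in 1 table, with RNA counted over whole mRNAs and footprints over coding sequence. The submitters' processing notes name Bowtie 1.2.2, STAR 2.6.0c, Subread 1.6.4 with featureCounts, DESeq2 1.24.0 and mm10. The strand setting and gene annotation of the counting are not given in the sources used here. The deposited comparison tables of the authors hold fold changes and p-values and were not used, nor were the 5138235 repeat rows. Depth was 13697267 to 27462358 gene counts for RNA, but 7609932 to 13233565 for footprints, where low genes are less precise.

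The members and gene lists were chosen with earlier results of these data known. Counts as deposited were tested in R 4.3.3 with edgeR 4.0.16 (quasi-likelihood F-test, TMM factors within each assay, filterByExpr, Benjamini-Hochberg adjustment over all genes, threshold 0.05), in fits of the 6 libraries of an assay for genotype and of all 12 for translation efficiency and footprints against RNA. DESeq2 1.42.0 and limma 3.58.1 (voom) were alternatives. The test was checked on simulated counts drawn independently for each library, so the check did not cover libraries that share an extract. P-values of the genotype fits within an assay measure the spread between these extracts. The main fits of all 12 libraries did not pair the libraries of an extract and treated them as separate samples. Per-sample values are CPM with TMM factors. Lengths came from RefSeq transcripts of GRCm38.p6, the same build as mm10, and were found for all 55 members. Log2 ratios of footprints to RNA used a pseudocount of 0.1 CPM. RNA and footprint libraries of an extract were paired by design, and their deviations from the group means correlated at 0.614 to 0.766 in Mael+/- and 0.235 to 0.251 in Mael-/- extracts over 13448 genes.

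All members could be named. Per-library values were given for the 3 members of each class with the highest RNA level per kilobase and the 3 with the largest fold change in RNA in each direction among those with a mean of at least 20 counts. Values of other members were added after they were seen. From each pathway list the 2 genes with the largest RNA fold change and at least 20 counts were named. Col21a1 and Lamb4 are not analysed here. Values of 1 member are not reported here on their own, and it is not drawn.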

Additional observations from a re-analysis of the deposited data

How the results depend on the processing

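No collagen or laminin was called in RNA, footprints or translation efficiency under any alternative run, and none of the 1403 values computed for single members under alternatives changed its side of the threshold. The number of genes called over the whole table was less stable. In RNA it was 17, and 58 with DESeq2, 35 with limma voom, 4 with a mean of at least 50 counts and 48 with the replicate number as a block. In footprints it was 8, and 21 with DESeq2, 1 with a mean of at least 50 counts and 22 with the replicate block. Leaving out 1 library gave 2 to 59 genes in RNA, with the maximum when heterozygous RNA replicate 1 was dropped and the minimum when Mael-/- RNA replicate 1 was, and 2 to 17 in footprints, the highest without heterozygous footprint replicate 1. The cause was not tested.

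Whether the replicate number pairs the genotypes was not settled by these values. Same-numbered heterozygous and Mael-/- libraries correlated at 0.223, -0.008 and 0.15 in RNA and 0.072, 0.203 and 0.043 in footprints. In RNA 2 of 3 heterozygous and 1 of 3 Mael-/- libraries correlated best with their own number, and in footprints 2 of 3 and 2 of 3. With this replicate block the member median was 0.06 in RNA and 0.10 in footprints. With the extract as a block no gene was called for translation efficiency.

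Leaving out 1 library gave member medians of -0.02 to 0.13 in RNA and 0.06 to 0.16 in footprints. The laminin median in footprints ran from -6e-04 to 0.13, the collagen median of translation efficiency from -0.0851 to 0.0904 and that of footprints against RNA in Mael+/- testes from 0.33 to 0.51. Per coding and exonic kilobase, the medians of footprints against RNA were 0.79 for members, 0.80 for collagens and 0.60 for laminins in Mael+/- testes, and 0.75, 0.82 and 0.60 in Mael-/- testes. Of the medians under alternative runs, 246 moved by less than the spread between replicates and 9 did not. Members with few counts, such as Col6a5, had intervals that include changes of more than 2-fold, so depth limits what can be said of them.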
